A study of Mus musculus with 12 samples.

Results

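The genes described here are the 10 core genes of MHC class I antigen presentation and of the immunoproteasome in mouse small bowel, B2m, H2-K1, H2-D1, Tap1, Tap2, Tapbp, Psmb8, Psmb9, Psmb10 and Nlrc5. They were taken by symbol from the deposited count files, where all 10 were found among 35791 genes. The rule matches symbols and uses no measured value, but the set was chosen with earlier results of these data known. The bowel came from C57BL/6 males of 8 to 10 weeks that underwent ileocecal resection, which removes the end of the ileum together with the cecum, and its RNA was profiled by sequencing. The 12 libraries fall into 4 groups of 3: 8 weeks after resection with 2'-fucosyllactose, a human milk sugar supplied at 2.5 g/L starting on day 0, when surgery was done (Post 2'-FL); before resection in the arm labelled with that supplement (Pre 2'-FL); 8 weeks after resection without it (Post control); and before resection without it (Pre control). All groups share strain and sex, and liquid diet from day 7 followed by chow is stated for all animals. The protocol text places every collection 8 weeks after surgery although 6 libraries carry a label from before it, and the single labels were followed here. The segment of bowel and whether same-numbered libraries came from the same mouse are not given, so that p-values measure the spread between libraries.

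MHC class I molecules show fragments of a cell's own proteins to CD8 T cells. The proteasome cuts proteins into peptides, the TAP transporter carries these into the endoplasmic reticulum, and tapasin holds empty class I molecules at the transporter until a peptide is loaded. Interferon-gamma raises the whole set, in part by exchanging the 3 catalytic subunits of the proteasome for inducible ones, and NLRC5 is a transactivator that acts at class I promoters. In small bowel, class I is read by the CD8 T cells that sit within the epithelium.

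Of the 10 genes, 7 lie within the MHC on mouse chromosome 17 (build GRCm38.p6). Tapbp spans chr17:33919478-33929290, H2-K1 chr17:33996012-34000619, Psmb9 chr17:34182030-34187330, Tap1 chr17:34187556-34197225, Psmb8 chr17:34198195-34201454, Tap2 chr17:34204479-34216321 and H2-D1 chr17:35263094-35267497. B2m lies outside the MHC at chr2:122147687-122153082, Psmb10 at chr8:105935728-105938392 and Nlrc5 at chr8:94434335-94527272. Psmb9 and Tap1 stand back to back on opposite strands, with 225 bases between their annotated starts.

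The 3 upstream stretches below are shown because B2m, Psmb9, Tap1 and Psmb8 carry the contrasts described further on, and because Psmb9 and Tap1 share one of them. They were read on the plus strand from the RefSeq promoter table of GRCm38.p6, which held 8 of the 10 genes (Tap2 and Nlrc5 had no entry). Capitals mark letters of an interferon-stimulated response element (ISRE, searched as TTTC, any 2 bases, TTTC), of an interferon-gamma activated site (GAS, searched as TTCNNNGAA) or a CCAAT box (searched as CCAAT), each on both strands.
B2m, chr2:122147538-122147567, ISRE letters beginning 139 bases before the start: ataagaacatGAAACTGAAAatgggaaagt
Tap1 and Psmb9, chr17:34187331-34187555, between both starts, a CCAAT box 222 bases before the start of Tap1: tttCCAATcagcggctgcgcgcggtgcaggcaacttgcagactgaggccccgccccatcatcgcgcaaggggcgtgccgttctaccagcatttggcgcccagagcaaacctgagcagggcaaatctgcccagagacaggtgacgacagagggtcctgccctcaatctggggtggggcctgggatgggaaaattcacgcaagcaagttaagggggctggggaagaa
Psmb8, chr17:34197945-34198194, GAS letters beginning 97 bases before the start: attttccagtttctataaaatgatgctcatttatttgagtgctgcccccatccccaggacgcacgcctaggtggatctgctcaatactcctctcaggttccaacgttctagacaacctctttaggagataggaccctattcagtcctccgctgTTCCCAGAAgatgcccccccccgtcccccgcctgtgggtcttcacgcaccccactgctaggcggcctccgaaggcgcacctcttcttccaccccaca
In all distinct upstream windows of 250 bases, 32536 in number, 2.98% held the ISRE letters, 7.04% the GAS letters and 33.81% a CCAAT box. Among the 8 genes with a window the ISRE letters stood only before B2m and the GAS letters only before Psmb8, while a CCAAT box stood in the windows of B2m, H2-D1, H2-K1, Tapbp, Psmb9 and Tap1. A match describes these letters and no more.

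The libraries held between 5663275 and 9385266 counts, and 13154 genes, all 10 members among them, passed the filter on low counts. Values are given in CPM, counts scaled to one common library size, with the standard deviation (SD) over 3 libraries. Transcript length moved with the groups: across genes, Spearman's rho between length and a gene's level relative to its own mean was between -0.60 and -0.44 in Post 2'-FL, between 0.36 and 0.50 in Pre 2'-FL, between -0.21 and 0.35 in Post control and between 0.26 and 0.45 in Pre control, where the highest Post control value is replicate 3. Changes of the 10 genes are therefore given as tested and with length and GC content corrected. Pre control replicate 2 had the lowest mean standardised level of the 10 genes (-1.44) and Post control replicate 1 the highest (1.00). In whole tissue, fewer cells of a type and less RNA per cell cannot be told apart.

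The 10 genes differ widely in level. Per kilobase of transcript, B2m, the light chain common to all class I molecules, led with 2854 ± 641 CPM/kb in Post 2'-FL, 2203 ± 215 in Pre 2'-FL, 3554 ± 280 in Post control and 2313 ± 396 in Pre control. H2-K1 and H2-D1, the classical class I heavy chains of this strain, came next in every group, at 829 ± 149 and 349 ± 80.3 CPM/kb in Pre control. Below them in Pre control stood Psmb10 at 138 ± 33.5, Tapbp at 101 ± 14.4, Psmb8 at 74.9 ± 44.5, Psmb9 at 37.2 ± 20.6, Tap1 at 19.2 ± 12 and Tap2 at 13.2 ± 3.92 CPM/kb. From Psmb10 down to Tap2, each gene's range of single libraries overlapped that of its neighbour. Nlrc5 was far lower, with 0.677 ± 0.605 CPM/kb in Pre control and between 6 and 78 counts in any library. In Post 2'-FL the middle of this order differed: Psmb9 stood at 106 ± 28 CPM/kb there, above Tapbp at 61.0 ± 24.9.

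**Figure D1:**
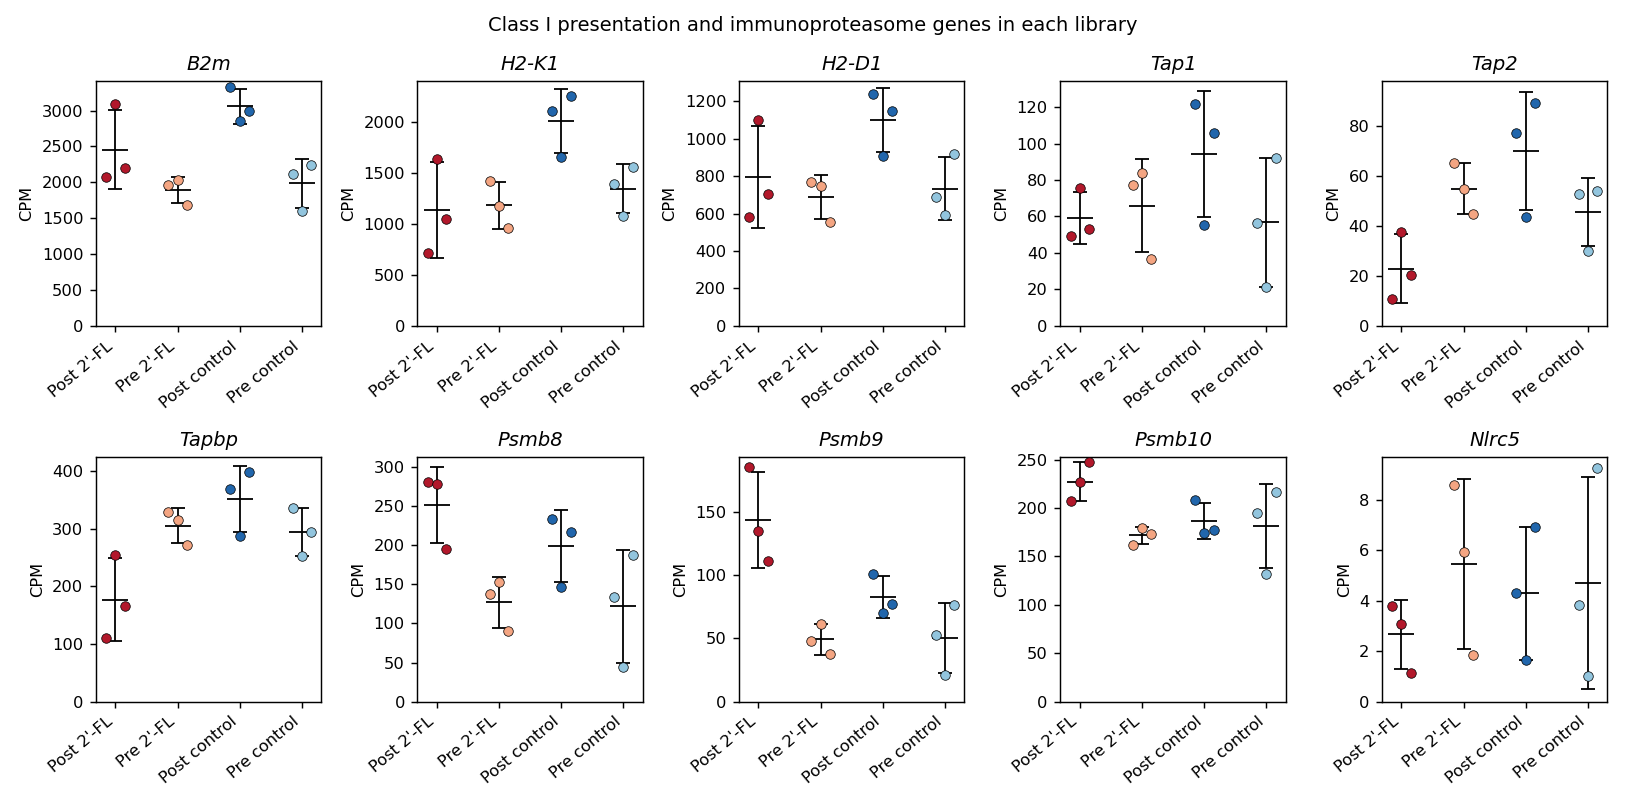
CPM of each of the 10 genes (vertical axis, from 0) in the 12 libraries, 3 per group, with the group mean and SD as bars; the 4 groups run from Post 2'-FL to Pre control. Psmb9 lies between 111 and 185 CPM in Post 2'-FL and between 37.4 and 61.6 CPM in Pre 2'-FL, whereas Tap2 lies between 10.6 and 37.7 CPM in Post 2'-FL and between 44.7 and 65.0 CPM in Pre 2'-FL.

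After resection with 2'-FL, set against Pre 2'-FL, the genes of this set moved in opposite directions. Psmb9 and Psmb8, which encode inducible catalytic subunits of the proteasome, rose, while Tap2, a chain of the peptide transporter, and Tapbp, which encodes tapasin, fell. That makes 4 of 10 genes called at an edgeR adjusted p under 0.05, in a comparison where 55.3% of all 13154 genes were called, 25.3% higher and 30% lower. The share called in this set is thus below that of all genes. The median log2 change of the 10 genes was 0.07, against -0.13 over all genes tested. Single libraries did not overlap for 6 of the 10, against 61.6% of all genes.

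Psmb9, the inducible beta-1 subunit, had 185, 135 and 111 CPM in Post 2'-FL and 48.2, 61.6 and 37.4 CPM in Pre 2'-FL. Every Post 2'-FL library was above every Pre 2'-FL library, and above every library of the control arm as well. Its log2 change was 1.55 ± 0.36 (SE; edgeR adjusted p = 0.00251). With length and GC corrected it was 1.09 ± 0.36 (adjusted p = 0.0279).

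Psmb8, the inducible beta-5 subunit, had 281, 278 and 195 CPM in Post 2'-FL and 138, 153 and 90.8 CPM in Pre 2'-FL. The libraries of the 2 groups did not overlap. Its log2 change was 0.98 ± 0.39 (edgeR adjusted p = 0.0427), and 0.76 ± 0.39 with the correction (adjusted p = 0.139), where it was not called. Psmb10, the inducible beta-2 subunit, averaged 227 ± 19.9 CPM in Post 2'-FL and 172 ± 8.91 CPM in Pre 2'-FL (SD, n = 3 each) without overlap, yet it was not called: its log2 change was 0.41 ± 0.19 (edgeR adjusted p = 0.0893), and -0.03 with the correction.

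Tap2 had 10.6, 37.7 and 20.5 CPM in Post 2'-FL and 65.0, 54.8 and 44.7 CPM in Pre 2'-FL. All Post 2'-FL libraries were below all Pre 2'-FL libraries. Its log2 change was -1.25 ± 0.38 (edgeR adjusted p = 0.013) as tested and -0.47 ± 0.31 with the correction (adjusted p = 0.257). Tap1, the partner chain of the same transporter, had 49.3, 75.4 and 53.0 CPM in Post 2'-FL and 77.5, 83.6 and 36.9 CPM in Pre 2'-FL. These groups overlapped, with a log2 change of -0.16 ± 0.44 (edgeR adjusted p = 0.775) and 0.51 ± 0.42 with the correction.

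Tapbp had 111, 254 and 165 CPM in Post 2'-FL and 330, 315 and 271 CPM in Pre 2'-FL. The groups did not overlap, although Post 2'-FL replicate 2 came close to the lowest Pre 2'-FL library. The log2 change was -0.79 ± 0.26 (edgeR adjusted p = 0.019), and -0.19 ± 0.20 with the correction (adjusted p = 0.477).

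The molecules that carry the peptide to the surface were not called as tested. B2m had 2078, 3087 and 2198 CPM in Post 2'-FL and 1966, 2034 and 1684 CPM in Pre 2'-FL, with no overlap. Its log2 change of 0.37 ± 0.24 (edgeR adjusted p = 0.198) turned to -1.36 ± 0.34 with length and GC corrected (adjusted p = 0.00731), so the call and the direction of B2m rest on the correction. At 860 nt and a GC content of 41.2%, B2m is the shortest and least GC-rich of the 10 transcripts, and the 634 genes of 132 to 945 nt had a median log2 change of 1.39 in this comparison. H2-K1 averaged 1133 ± 469 CPM in Post 2'-FL and 1182 ± 230 CPM in Pre 2'-FL, a log2 change of -0.06 ± 0.29, or -0.29 with the correction. H2-D1 averaged 797 ± 272 CPM in Post 2'-FL and 691 ± 117 CPM in Pre 2'-FL, a log2 change of 0.21 ± 0.27, or 0.29 with the correction. Counts of B2m, H2-K1, H2-D1, Tap1 and Tapbp were fractional in all 12 libraries, so reads had been divided, and the heavy chains share sequence with their relatives, which leaves their levels uncertain. Nlrc5 averaged 2.66 ± 1.38 CPM in Post 2'-FL and 5.46 ± 3.38 CPM in Pre 2'-FL, and its log2 change of -1.05 ± 0.73 (edgeR adjusted p = 0.234) became 0.31 ± 0.71 with the correction.

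With length and GC corrected, 2 of the 10 passed in the 2'-FL arm, Psmb9 higher and B2m lower, against 35.9% of all genes, 21.1% higher and 14.7% lower. Single libraries also decided calls as tested: the call of Tap2 was lost without Pre 2'-FL replicate 1 or Post 2'-FL replicate 1, where its log2 change was -1.04 and -0.91. Tapbp lost its call without Pre 2'-FL replicate 1 or 2 or Post 2'-FL replicate 1 or 3, and Psmb8 without Pre 2'-FL replicate 1 or 3 or Post 2'-FL replicate 1 or 2. Psmb9 was called without each library as tested, with log2 changes between 1.33 and 1.83. With the correction Psmb9 lost its call without Pre 2'-FL replicate 1 or 3 or Post 2'-FL replicate 1 (adjusted p up to 0.12), while B2m was called without each of the 6 libraries.

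**Figure D2:**
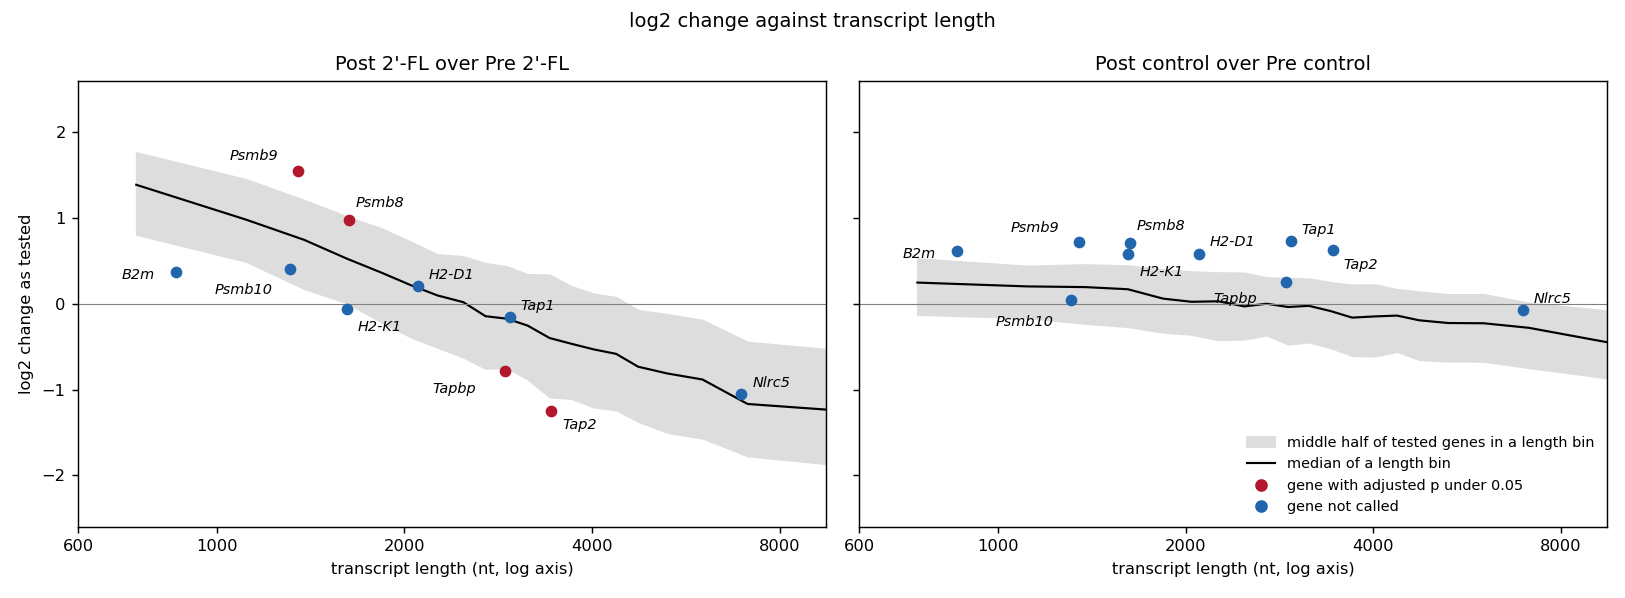
log2 change as tested (vertical axis) against transcript length in nucleotides (horizontal log axis) for the 10 genes as points, over the median (line) and interquartile range (grey) of all tested genes in bins of length, for Post 2'-FL over Pre 2'-FL (left) and Post control over Pre control (right). In the 2'-FL arm the line falls to -1.24 in the longest bin, against 1.39 in the shortest, and Psmb9 at 1.55 lies above the grey band while Tap2 at -1.25, Tapbp at -0.79, H2-K1 at -0.06 and B2m at 0.37 lie below it.

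After resection without the supplement, set against Pre control, 9 of the 10 genes had a positive edgeR log2 change, but none was called. The median log2 change was 0.60, against -0.05 over all genes, and 10.8% of all genes were called. Without adjustment, 2 of the 10 genes and 3889 of the 13154 had an edgeR p under 0.05. DESeq2 called 1, B2m, at a log2 change of 0.65 (adjusted p = 0.0158), beside 14.8% of all genes.

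B2m had 3325, 2858 and 2987 CPM in Post control and 2121, 1603 and 2244 CPM in Pre control. The groups did not overlap, and its log2 change was 0.62 ± 0.24 (edgeR adjusted p = 0.105). H2-K1 had 2106, 1650 and 2250 CPM in Post control and 1392, 1080 and 1553 CPM in Pre control, again without overlap, with a log2 change of 0.58 ± 0.29 (edgeR adjusted p = 0.204). These 2 genes were the only members whose libraries did not overlap in this arm, where 34.9% of all genes did not overlap and 17.4% were higher without overlap. H2-D1 averaged 1101 ± 171 CPM in Post control and 733 ± 169 CPM in Pre control, a log2 change of 0.59 ± 0.27 (edgeR adjusted p = 0.16).

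Psmb8 had 234, 147 and 216 CPM in Post control and 133, 44.5 and 188 CPM in Pre control, where replicate 2 was far below the other two libraries. Psmb9 followed the same pattern, with 101, 69.6 and 76.8 CPM in Post control and 52.9, 21.2 and 76.7 CPM in Pre control. Tap1 had 122, 55.4 and 106 CPM in Post control and 56.6, 21.4 and 92.3 CPM in Pre control. In all 3 genes the groups overlapped. Their log2 changes were 0.71 ± 0.38 for Psmb8, 0.72 ± 0.35 for Psmb9 and 0.74 ± 0.43 for Tap1, at edgeR adjusted p-values of 0.231, 0.192 and 0.271. Leaving out single libraries moved these changes to between 0.34 and 1.17 for Psmb8, 0.38 and 1.16 for Psmb9, and 0.37 and 1.28 for Tap1, and called no gene of the set.

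Tap2 averaged 69.9 ± 23.8 CPM in Post control and 45.5 ± 13.5 CPM in Pre control, with a log2 change of 0.62 ± 0.37 (edgeR adjusted p = 0.274). Tapbp at 0.26 ± 0.26, Psmb10 at 0.04 ± 0.19 and Nlrc5 at -0.07 ± 0.68 had the smallest log2 changes. With length and GC corrected the log2 changes were 0.29 for B2m, 0.54 for H2-K1, 0.62 for H2-D1, 0.69 for Psmb8, 0.65 for Psmb9, 0.96 for Tap1, 0.43 for Tapbp, -0.04 for Psmb10 and 0.33 for Nlrc5. None of the 10 was called then either, against 12.6% of all genes; 3 of the 10 had an unadjusted p under 0.05, and the smallest adjusted p was 0.0736, for Tap2 at a log2 change of 0.86 ± 0.30.

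**Figure D3:**
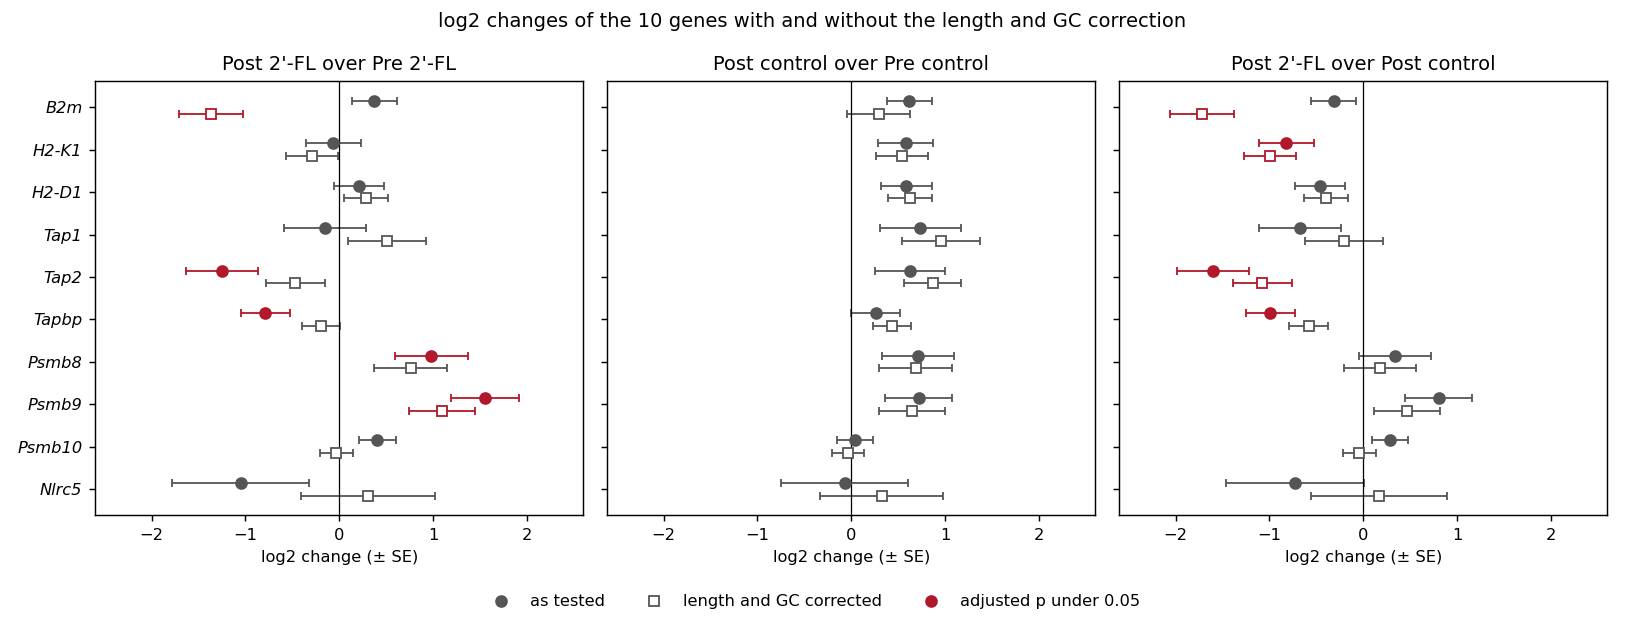
log2 change with its SE (horizontal axis) of each of the 10 genes for Post 2'-FL over Pre 2'-FL, Post control over Pre control, and Post 2'-FL over Post control, as tested (circles) and length and GC corrected (squares), with an adjusted p under 0.05 in red. In the control arm 9 circles lie above 0 and none is red; in the 2'-FL arm B2m stands at 0.37 as tested and at -1.36 corrected.

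Between the arms after resection, Post 2'-FL was lower than Post control in 3 of the 10 genes, Tap2, Tapbp and H2-K1, and higher in none. Of all genes 38.1% were called in this comparison, and 19.3% of all genes were lower. The members' median log2 difference was -0.57, against 0.02 over all genes.

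Tap2 had 10.6, 37.7 and 20.5 CPM in Post 2'-FL and 77.0, 43.4 and 89.3 CPM in Post control. The groups did not overlap, and the log2 difference was -1.60 ± 0.38 (edgeR adjusted p = 0.00542), or -1.08 ± 0.31 with the correction (adjusted p = 0.0272). Tapbp had 111, 254 and 165 CPM in Post 2'-FL and 370, 287 and 399 CPM in Post control, a log2 difference of -0.99 ± 0.26 (edgeR adjusted p = 0.00881), or -0.58 ± 0.21 with the correction (adjusted p = 0.0562), where it was not called. H2-K1 had 711, 1637 and 1050 CPM in Post 2'-FL and 2106, 1650 and 2250 CPM in Post control. The highest Post 2'-FL library of H2-K1 nearly reached the lowest Post control library, and the log2 difference was -0.82 ± 0.29 (edgeR adjusted p = 0.0398), or -0.99 ± 0.28 with the correction (adjusted p = 0.023).

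B2m averaged 2454 ± 551 CPM in Post 2'-FL and 3056 ± 241 CPM in Post control. Its log2 difference was -0.32 ± 0.24 (edgeR adjusted p = 0.314) as tested and -1.72 ± 0.34 with the correction (adjusted p = 0.00607), called without each of the 6 libraries at -1.39 to -2.20. With the correction 3 of 10 genes were called lower, B2m, H2-K1 and Tap2, against 21.8% of all genes called in either direction and 11.4% called lower. Psmb9 was the member with all Post 2'-FL libraries above all Post control libraries, at 144 ± 37.8 CPM in Post 2'-FL and 82.5 ± 16.6 CPM in Post control. It was not called at a log2 difference of 0.80 ± 0.35 (edgeR adjusted p = 0.0874), and stood at 0.46 with the correction (adjusted p = 0.357). A fit of these 2 groups alone called Psmb9 (0.78, adjusted p = 0.0332) and did not call H2-K1 (-0.83, adjusted p = 0.0621). Libraries did not overlap for 4 of the 10 genes, against 50.6% of all genes.

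The other 5 genes were not called between the arms after resection. H2-D1 stood at a log2 difference of -0.47 ± 0.27, Tap1 at -0.67 ± 0.44, Psmb8 at 0.34 ± 0.38, Psmb10 at 0.28 ± 0.19 and Nlrc5 at -0.73 ± 0.73, with overlapping libraries in each. With the correction these were -0.40 for H2-D1, -0.21 for Tap1, 0.18 for Psmb8, -0.04 for Psmb10 and 0.17 for Nlrc5, so that Psmb10 and Nlrc5 changed sign. As tested, H2-K1 lost its call without Post control replicate 1 or 3 or Post 2'-FL replicate 1 or 3, and Tapbp lost its call without Post control replicate 3. Tap2 was called without each library. H2-D1 was called only without Post 2'-FL replicate 2, at -0.77 (adjusted p = 0.0322). With the correction, H2-K1 and Tap2 were not called without Post control replicate 1 or 3 or Post 2'-FL replicate 1 or 3.

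Before resection the arms did not separate in these genes. The supplement is stated to start on day 0, when surgery was done. Whether Pre 2'-FL bowel had received it is not given. If it had not, resection and supplement cannot be told apart in Post 2'-FL against Pre 2'-FL. None of the 10 was called between Pre 2'-FL and Pre control by edgeR or DESeq2, where edgeR called 2 genes in all (0.0152%) and DESeq2 called 24 (0.182%), and none of the 10 and 445 of all genes had an unadjusted edgeR p under 0.05. The log2 differences lay between -0.18 for H2-K1 and 0.27 for Tap2, and between -0.17 and 0.26 for the same genes with the correction. Their SE lay between 0.19 and 0.67, which leaves room for differences of that order. The libraries of both groups overlapped for all 10 genes, against 9.22% of all genes whose libraries did not.

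Whether the arms differed in their change after resection was tested as an interaction, the log2 change with 2'-FL less that without it. It was called for 1 of 10 genes, Tap2, against 15.5% of all genes, 8.03% lower. Tap2 stood at -1.87 ± 0.53 (edgeR adjusted p = 0.0319): its log2 change was -1.25 in the 2'-FL arm and 0.62 in the control arm. With the correction the value was -1.33 ± 0.44 (adjusted p = 0.119), and none of the 13154 genes was called (0%), although 2638 had an unadjusted p under 0.05. As tested, the call of Tap2 was lost without Pre control replicate 2 or 3, Pre 2'-FL replicate 1 or 2, Post control replicate 1 or 3, or Post 2'-FL replicate 1 or 3. DESeq2 called Tap2 (-1.83, adjusted p = 0.00755) and Tapbp (-1.0, adjusted p = 0.0396) beside 20.1% of all genes, the second of which edgeR placed at -1.04 ± 0.37 (adjusted p = 0.0646). Tapbp was called by edgeR without Post 2'-FL replicate 2, at -1.40 (adjusted p = 0.0085). For Psmb9 the interaction was 0.83 ± 0.50 (edgeR adjusted p = 0.263), or 0.44 with the correction, so that its call in the 2'-FL arm and its lack of one in the control arm do not show a difference between the arms.

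An immunoproteasome forms when Psmb8, Psmb9 and Psmb10 products take the places of Psmb5, Psmb6 and Psmb7 products, the constitutive catalytic subunits. Those 3 constitutive genes rose after resection with 2'-FL as well. Psmb5 had 144, 124 and 170 CPM in Post 2'-FL and 58.3, 55.4 and 53.3 CPM in Pre 2'-FL, a log2 change of 1.39 ± 0.19 (edgeR adjusted p = 6.9e-05). Psmb6 changed by 1.55 ± 0.18 (edgeR adjusted p = 3.78e-05) and Psmb7 by 1.36 ± 0.18 (edgeR adjusted p = 5.98e-05). With the correction the log2 changes were 0.65, 0.70 and 0.36 for Psmb5, Psmb6 and Psmb7, all called. In the control arm none of the 3 was called, at log2 changes of 0.22, 0.33 and 0.33.

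Ratios of counts within a library, on the log2 scale, do not depend on library scaling. Psmb9 over Psmb6 averaged -0.83 ± 0.37 in Post 2'-FL and -0.84 ± 0.41 in Pre 2'-FL, a difference of 0.01 (exact permutation test, two-sided, p = 1), or 0.38 with length and GC corrected. Both values lay within the spread of these libraries, and 3 against 3 libraries cannot give a p under 0.1. Psmb8 over Psmb5 averaged 0.78 ± 0.51 in Post 2'-FL and 1.16 ± 0.36 in Pre 2'-FL, a difference of -0.38 (exact p = 0.4), or 0.11 with the correction. Psmb10 over Psmb7 had -0.08, 0.52 and 0.40 in Post 2'-FL and 1.11, 1.25 and 1.33 in Pre 2'-FL. These did not overlap, and the difference was -0.95 (exact p = 0.1, the smallest that 3 against 3 libraries allow) or -0.39 with the correction.

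In the control arm the differences of the log2 ratios were 0.71 for Psmb8 over Psmb5 (exact p = 0.4), 0.57 for Psmb9 over Psmb6 (exact p = 0.5) and -0.26 for Psmb10 over Psmb7 (exact p = 0.4). Over both arms, with labels permuted within each arm in all 400 arrangements, Psmb10 over Psmb7 differed by -0.60 between Post and Pre (exact p = 0.02; 0.06 adjusted over the 3 ratios). With the correction that value was -0.28 (exact p = 0.055; adjusted 0.165). Psmb8 over Psmb5 differed by 0.16 (exact p = 0.73), or 0.41 with the correction (exact p = 0.3). Psmb9 over Psmb6 differed by 0.29 (exact p = 0.445), or 0.46 with the correction (exact p = 0.175). The smallest p this design allows is 0.005.

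Psmb9 and Tap1, which share the interval printed above, parted in 1 group. The pair was chosen after its values were seen, and its ratio carries no test. Psmb9 over Tap1 on the log2 scale was 1.91, 0.84 and 1.07 in Post 2'-FL and -0.68, -0.44 and 0.02 in Pre 2'-FL. Without the supplement it measured -0.27, 0.33 and -0.46 in Post control and -0.10, -0.01 and -0.27 in Pre control. Post 2'-FL stood above all 9 other libraries. The difference of means in the 2'-FL arm was 1.64, or 0.49 with length and GC corrected, and in the control arm -0.01, or -0.30 corrected. The transcripts measure 1352 nt for Psmb9 and 2953 nt for Tap1, and the part of length in this difference was not tested beyond that correction.

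**Figure D4:**
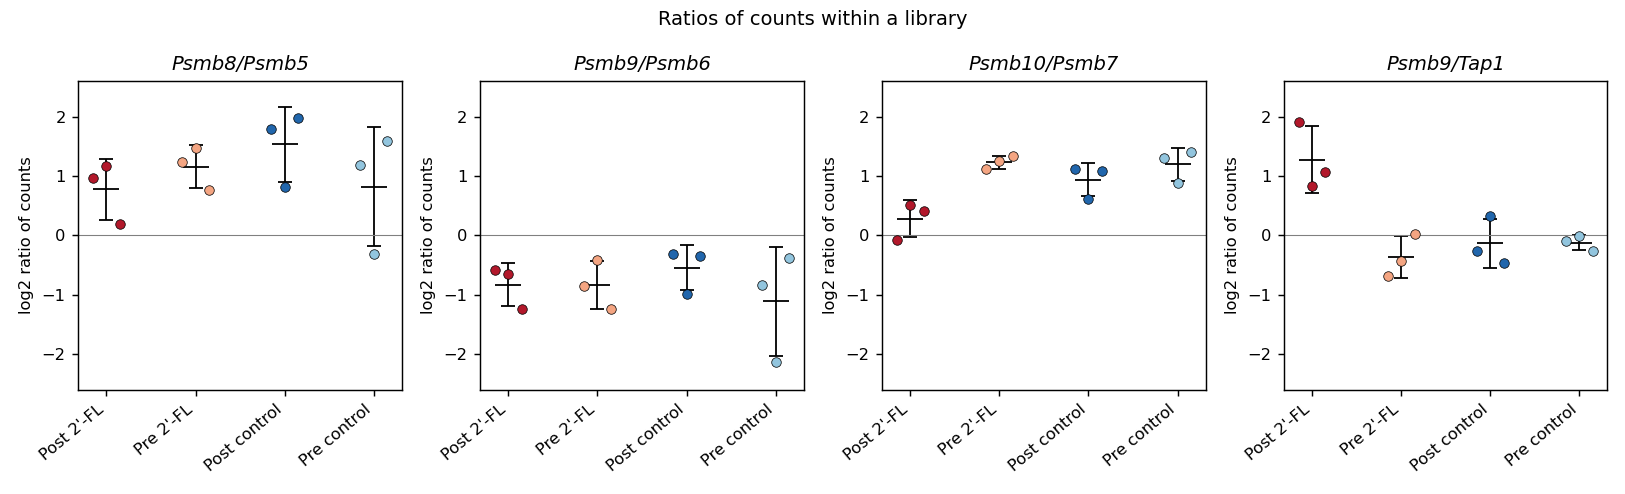
log2 ratio of counts within each library (vertical axis) for Psmb8 over Psmb5, Psmb9 over Psmb6, Psmb10 over Psmb7 and Psmb9 over Tap1 in the 4 groups of 3 libraries, with mean and SD as bars. Psmb10 over Psmb7 averages 0.28 in Post 2'-FL and 1.23 in Pre 2'-FL, Psmb9 over Psmb6 is alike in these groups, and Psmb9 over Tap1 averages 1.27 in Post 2'-FL and -0.37 in Pre 2'-FL.

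Other genes of the pathway were taken by list. Among nonclassical and other class I heavy chains, 18 of 24 were tested. In Post 2'-FL against Pre 2'-FL 5 rose and 1 fell, where 25.3% of all genes were called higher and 30% lower. In Post control against Pre control 4 rose and none fell, where 10.8% of all genes were called in either direction. The list's median log2 change was 0.37 in the 2'-FL arm and 0.38 in the control arm, and with the correction 0.08 in the 2'-FL arm and 0.39 in the control arm. Over all genes the median was -0.13 in the 2'-FL arm and -0.05 in the control arm, and 0.02 and 0.05 with the correction. H2-Q10, a heavy chain of the Q region, had 28, 32.9 and 43.3 CPM in Post 2'-FL and 9.81, 6.74 and 5.80 CPM in Pre 2'-FL, a log2 change of 2.21 ± 0.36 (edgeR adjusted p = 0.000206). Without the supplement H2-Q10 changed by 1.73 ± 0.35 (edgeR adjusted p = 0.0105) and lost its call without Post control replicate 2 (adjusted p = 0.0507).

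H2-T22, which gamma-delta T cells can recognise in mice, had 67.7, 81.5 and 62.3 CPM in Post 2'-FL and 38.2, 40.1 and 33.2 CPM in Pre 2'-FL. It rose by 0.92 ± 0.17 on the log2 scale (edgeR adjusted p = 0.000522). Its control libraries had 71.2, 68.2 and 55.6 CPM in Post control and 36.6, 38.0 and 38.4 CPM in Pre control, a log2 change of 0.79 ± 0.17 (edgeR adjusted p = 0.0145). H2-Q2 rose by 1.13 ± 0.23 in the 2'-FL arm (edgeR adjusted p = 0.00117) and H2-Q1 by 0.84 ± 0.22 in the control arm (edgeR adjusted p = 0.0315). These calls held with length and GC corrected. Those of H2-T22 and H2-Q1 in the control arm were lost without single libraries, H2-T22 without Pre control replicate 3 or Post control replicate 1 or 2, and H2-Q1 without these or Pre control replicate 2. Counts of all 4 genes were fractional in all 12 libraries, so reads may have been divided among them. No gene of this list was called between Post 2'-FL and Post control, by edgeR or DESeq2, where 2 had an unadjusted edgeR p under 0.05 and H2-Q4 had the smallest (-0.76, edgeR adjusted p = 0.0748). Of all genes edgeR called 38.1% there, and 21.8% with the correction. With the correction none of the 18 was called either, but 6 had an unadjusted edgeR p under 0.05, as had 4875 of the 13154 genes. The list's corrected median was -0.23, against 0.00138 over all genes.

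Of 15 genes of peptide loading and trimming outside the set, 1 rose and 8 fell in Post 2'-FL against Pre 2'-FL, and with the correction 1 rose and 3 fell. Of all genes 55.3% were called there as tested and 35.9% with the correction. Uggt1, the folding sensor that returns class I glycoproteins for loading, fell by 1.05 on the log2 scale as tested (edgeR adjusted p = 0.00065) and stood at 0.23 with the correction. Ganab, a glucosidase subunit of the endoplasmic reticulum, fell by 0.84 (edgeR adjusted p = 0.00139) and stood at -0.15 with the correction. Tpp2, a cytosolic peptidase, fell by 0.75 (edgeR adjusted p = 0.00308) and by 0.67 with the correction (adjusted p = 0.00517). Without the supplement 1 of the 15 was called: Erap1, the aminopeptidase that trims class I peptides, fell by 0.69 (edgeR adjusted p = 0.0446) and lost this call without any of 5 of the 6 libraries, Post control replicate 3 being the exception. The share of all genes called in that arm was 10.8%.

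All 19 genes of the constitutive proteasome core and its assembly were tested. In Post 2'-FL against Pre 2'-FL 18 rose and none fell, with a median log2 change of 1.39, and with the correction 12 rose and 2 fell, with a median of 0.57. Of all genes 25.3% were called higher there as tested and 21.1% with the correction. The median over all genes was -0.13 as tested and 0.02 with the correction. Psma7, a subunit of the outer ring, had 564, 330 and 400 CPM in Post 2'-FL and 89.8, 77.8 and 71.8 CPM in Pre 2'-FL, a log2 change of 2.43 ± 0.23 (edgeR adjusted p = 2.96e-05) and 1.42 with the correction. In Post control against Pre control 3 rose: Pomp, the assembly chaperone, by 0.76, Psma7 by 0.77 and Psma6 by 0.66 (edgeR adjusted p = 0.0319, 0.0409 and 0.0456). Each of these 3 lost its call without any of 5 of the 6 libraries. The share of all genes called in the control arm was 10.8%. Between Post 2'-FL and Post control all 19 were higher as tested and 4 with the correction. There 38.1% of all genes were called in either direction as tested and 21.8% with the correction. The interaction was called for 15 of the 19, all positive, and for none with the correction. It was called for 15.5% of all genes as tested and for 0% with the correction.

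Psme1 and Psme2 encode the interferon-inducible activator cap of the proteasome. Psme2 had 985, 677 and 736 CPM in Post 2'-FL and 249, 296 and 242 CPM in Pre 2'-FL, a log2 change of 1.61 ± 0.22 (edgeR adjusted p = 6.52e-05) and 0.71 ± 0.19 with the correction (adjusted p = 0.00952). Psme1 rose by 1.03 ± 0.19 (edgeR adjusted p = 0.000538) and stood at 0.36 with the correction (adjusted p = 0.135). Psme3, whose product forms a nuclear cap, fell by 0.64 (edgeR adjusted p = 0.0136), a call lost without Pre 2'-FL replicate 2. In this arm 25.3% of all genes were called higher and 30% lower as tested. Without the supplement edgeR called none of the 4 activator genes and DESeq2 called 1, where edgeR called 10.8% of all genes and DESeq2 14.8%. An unadjusted edgeR p under 0.05 was found for 1 of the 4: Psme2 had a log2 change of 0.62 ± 0.21 (edgeR adjusted p = 0.0703).

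Among 25 tested regulators of class I and of interferon signalling, 2 rose and 8 fell in Post 2'-FL against Pre 2'-FL, and 6 rose and 4 fell with the correction. Of all genes 55.3% were called there as tested (30% lower) and 35.9% with the correction. Irf2, a factor that can hold interferon-inducible promoters in check, had 16.5, 28.8 and 25.1 CPM in Post 2'-FL and 65.1, 46.6 and 65.2 CPM in Pre 2'-FL. It fell by 1.33 on the log2 scale (edgeR adjusted p = 0.000578) and by 1.52 with the correction (adjusted p = 0.000862), and it was also lower in Post 2'-FL than in Post control, at -1.43 ± 0.25 (edgeR adjusted p = 0.00104). Rela, an NF-kappa-B subunit, fell by 1.46 (edgeR adjusted p = 0.000171) and by 0.83 with the correction. Stat3 fell by 1.29 (edgeR adjusted p = 0.000194) but stood at -0.11 with the correction.

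In Post control against Pre control 3 of the 25 regulators rose and none fell, and 7 rose with the correction. Of all genes 10.8% were called there as tested and 12.6% with the correction. Stat2, which carries the type I interferon signal, had 43.2, 47.5 and 57.1 CPM in Post control and 22.4, 22.9 and 27.6 CPM in Pre control, a log2 change of 1.02 ± 0.23 (edgeR adjusted p = 0.016), called without each library. Irf7 rose by 1.04 ± 0.28 (edgeR adjusted p = 0.0327) and Ifnar2, a chain of the type I interferon receptor, by 0.71 ± 0.20 (edgeR adjusted p = 0.0415). Irf7 lost its call without Pre control replicate 2 or 3 or Post control replicate 1 or 2, and Ifnar2 without any of these or Pre control replicate 1. Irf1, a main activator of Tap1 and Psmb9, was not called in either arm, at 0.07 ± 0.21 in the 2'-FL arm and 0.49 ± 0.21 in the control arm. Between Post 2'-FL and Post control 9 of the 25 regulators were lower and none higher, and 7 were lower with the correction. Of all genes 19.3% were lower there as tested and 11.4% with the correction. Before resection edgeR called no regulator between the arms and DESeq2 called 1, while 2 had an unadjusted edgeR p under 0.05. Socs3, an inhibitor of cytokine signalling, had the smallest p there, at 2.66 ± 0.49 (edgeR adjusted p = 0.128).

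Of 14 tested interferon-inducible GTPases, genes that answer to interferon-gamma, none was called in the control arm by edgeR or DESeq2 (0 at an unadjusted edgeR p under 0.05) and 3 fell in the 2'-FL arm, also with the correction. Of all genes 30% were called lower in the 2'-FL arm as tested and 14.7% with the correction. Gbp5 had 1.14, 1.46 and 0.558 CPM in Post 2'-FL and 5.51, 9.54 and 5.42 CPM in Pre 2'-FL, a log2 change of -2.62 ± 0.58 (edgeR adjusted p = 0.00182). Irgm1 fell by 1.40 (edgeR adjusted p = 0.00856), a call lost without Pre 2'-FL replicate 2, and Gbp2 by 1.50 (edgeR adjusted p = 0.0389), a call lost without Pre 2'-FL replicate 2 or Post 2'-FL replicate 1 or 3. These 3 stood opposite in sign to Psmb8 and Psmb9 in the same libraries, and the rest of the list was not called. None of the 7 MHC class II genes was called in any of the 5 comparisons by edgeR, with or without the correction, or by DESeq2. As tested 0 had an unadjusted edgeR p under 0.05, and with the correction 1 did in the 2'-FL arm. Libraries of Cd74 in this list scattered widely, at 902 ± 842 CPM in Post 2'-FL and 1777 ± 1193 CPM in Post control.

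Among 8 tested receptors that read class I, edgeR called 1 in each arm as tested and none with the correction. Called among all genes were 55.3% in the 2'-FL arm and 10.8% in the control arm, and 35.9% and 12.6% with the correction. The receptor called was Klrd1, a chain of the CD94 receptor of natural killer and T cells. It had 29.8, 15.8 and 7.65 CPM in Post 2'-FL and 5.63, 2.81 and 2.03 CPM in Pre 2'-FL, a log2 change of 2.30 ± 0.47 (edgeR adjusted p = 0.00102), but -0.21 with the correction. Without the supplement Klrd1 changed by 1.84 ± 0.47 (edgeR adjusted p = 0.027) and by 1.35 with the correction (adjusted p = 0.0503), a call lost without Pre control replicate 2 or 3 or Post control replicate 1 or 2. Between Post 2'-FL and Post control Klrd1 stood at 0.81 as tested (edgeR adjusted p = 0.152). With the correction it was lower in Post 2'-FL, at -1.17 (edgeR adjusted p = 0.0431), where 11.4% of all genes were called lower. The Klrd1 transcript measures 895 nt.

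The members did not rise and fall as 1 block over the 12 libraries. Each gene's standardised log2 level was set against the mean of the other 9. Pearson's r was highest for Tap1 at 0.94, H2-D1 at 0.89, B2m at 0.82 and H2-K1 at 0.75, followed by Psmb8 at 0.67, Nlrc5 at 0.55, Tap2 at 0.49, Psmb9 at 0.42, and Psmb10 and Tapbp at 0.38. These values describe 12 libraries that share scaling and the length pattern. The 5 genes outside the set most like the mean profile of the members were Ccl5 (r = 0.89, rho = 0.80), Gzmb (0.89 and 0.73), Cd8a (0.88 and 0.85), Tcra (0.88 and 0.94) and Igtp (0.87 and 0.84), each over 12 libraries.

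Cd8a, a chain of the CD8 coreceptor, had 20.3, 33.6 and 12.3 CPM in Post 2'-FL and 25.5, 15.6 and 11.7 CPM in Pre 2'-FL. Its control libraries held 31.6, 14.1 and 43.0 CPM in Post control and 15.1, 4.77 and 18.7 CPM in Pre control. Its lowest library, Pre control replicate 2, was also the lowest of Tap1, Psmb8 and Psmb9. Cd8b1, also listed among the receptors that read class I, did not follow Cd8a and was low. Cd8b1 averaged 0.716 ± 0.552 CPM in Post 2'-FL and 1.79 ± 0.752 CPM in Pre 2'-FL. Without the supplement it averaged 1.01 ± 0.864 CPM in Post control and 1.13 ± 0.638 CPM in Pre control. The summed level of 9 T cell markers lay between 195 and 603 CPM in Post 2'-FL, between 80.0 and 234 CPM in Pre 2'-FL, between 214 and 444 CPM in Post control and between 48.3 and 208 CPM in Pre control. The sums of the control arm did not overlap, as for B2m and H2-K1. Of the 9 markers 8 were tested. EdgeR and DESeq2 called none in the control arm, where 4 had an unadjusted edgeR p under 0.05, and 2 rose in the 2'-FL arm. Among all genes edgeR called 10.8% and DESeq2 14.8% in the control arm, and edgeR called 25.3% higher in the 2'-FL arm. The entry named Trac was at 0 in all libraries, and Tcra carried counts. Markers of white blood cells in general, 4 genes, lay the other way. They summed to between 72.9 and 130 CPM in Post 2'-FL and between 105 and 198 CPM in Pre 2'-FL. In the control arm they summed to between 50.3 and 99.0 CPM in Post control and 74.0 and 144 CPM in Pre control. These sums overlapped in both arms, and 1 marker fell in the 2'-FL arm, where 30% of all genes were called lower. Epithelial markers, 10 genes, summed to between 6264 and 11832 CPM in Post 2'-FL, 9741 and 12708 CPM in Pre 2'-FL, 15836 and 17327 CPM in Post control and 10867 and 16491 CPM in Pre control. Markers of B cells and plasma cells summed to between 1199 and 1995 CPM in Post 2'-FL and between 339 and 856 CPM in Pre 2'-FL. Endothelial markers summed to between 16.5 and 26.8 CPM in Post 2'-FL and between 70.1 and 149.8 CPM in Pre 2'-FL. All 7 fell in this arm, against 30% of all genes. Smooth muscle markers, 5 genes, summed to between 1106 and 1326 CPM in Post 2'-FL, 635 and 1437 CPM in Pre 2'-FL, 431 and 672 CPM in Post control and 741 and 992 CPM in Pre control. Post 2'-FL was thus above Post control, and Post control below Pre control, without overlap. Of 6 tested myeloid markers 3 fell in the 2'-FL arm, against 30% of all genes. In the control arm 2 fell, where 10.8% of all genes were called in either direction. The part of T cells, B cells, epithelium, endothelium, smooth muscle and myeloid cells in the levels of the class I genes was not tested.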

How the data were processed

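Bulk RNA from mouse small bowel was profiled in 12 libraries with the TruSeq kit on an Illumina HiSeq, per the labels' protocols. Each deposited file holds the authors' expected counts per gene (estimated counts, not normalised), per the file headers. The submitters' processing notes name mm10 and DESeq. Aligner, counter, gene annotation and strandedness: not given in the sources used here. Between 11.7% and 15.9% of entries were fractional (tolerance 0.001). Entries of a gene listed at several places (486 of 36186) were summed and rounded, which left 35791 genes. One count was worth between 0.107 and 0.177 CPM before TMM scaling.

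In R 4.3.3, edgeR 4.0.16 kept 13154 genes (filterByExpr), scaled libraries by TMM and fitted 1 quasi-likelihood model with 4 group means (8 residual degrees of freedom, biological coefficient of variation 0.238). Tests were two-sided, p-values were adjusted over all genes tested (Benjamini-Hochberg), and "called" means an adjusted p under 0.05. Each SE was taken from the log2 change and its F statistic (change over root F). The correction took gene-centred log2 CPM (prior count 2) of every library, modelled its trend on transcript length and GC content with natural splines (4 degrees of freedom each), and passed the trends to edgeR as offsets. For 12658 genes, length and GC were those of the longest GENCODE transcript that has a curated RefSeq counterpart. Ratios used a pseudocount of 0.5 counts. Scripts were tested on simulated data.

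The members and lists were chosen with earlier results of these data known. Named are all 10 members, Psmb5, Psmb6, Psmb7, Psme1, Psme2 and Irf1, up to 3 called genes of a list with the smallest p in a comparison (the 1 with the smallest p where none was called), and the 5 genes most like the members' mean profile; not every such gene is printed, and 1 regulator is not reported here. Alternatives were DESeq2 size factors in edgeR, DESeq2 1.42.0, no filter, the correction, the 2 groups alone, a replicate block and leaving out each library. The last of these combined with the correction, and corrected ratios, were added after the data were seen.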

Additional observations from a re-analysis of the deposited data

Results flagged for a closer look

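Tap2, which encodes a chain of the peptide transporter, differed between the arms in its change after resection: the log2 change with 2'-FL less that without it was -1.87 ± 0.53 (edgeR interaction, adjusted p = 0.0319). It had 10.6, 37.7 and 20.5 CPM in Post 2'-FL, 65.0, 54.8 and 44.7 CPM in Pre 2'-FL, 77.0, 43.4 and 89.3 CPM in Post control and 52.8, 29.97 and 53.8 CPM in Pre control. All 3 Post 2'-FL libraries were below all Pre 2'-FL libraries, and the control groups overlapped. With length and GC corrected the interaction was -1.33 ± 0.44 (adjusted p = 0.119), where no gene of 13154 was called. As tested, the call was lost when any 1 of 8 of the 12 libraries was left out, at adjusted p-values between 0.0529 and 0.104.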

How the results depend on the processing

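Of 1040 member changes under alternatives, 929 kept their direction or were called in neither setting (115 of these changed sign), 80 lost a call, 23 gained one and 8 reversed. The 8 are B2m in the 2'-FL arm, which was 0.37 as tested, -1.36 corrected, -1.51 corrected with the replicate block, and -1.26, -1.32, -1.46, -1.03, -1.84 and -1.30 corrected without single libraries. The cause was not tested. The correction called 4716 genes in the 2'-FL arm (7274 as tested) with 2 members (4), 2864 between the arms after resection (5011), and 0 genes and 0 members in the interaction (2038 and 1). It moved the log2 ratio difference in the 2'-FL arm to 0.11 for Psmb8 over Psmb5, 0.38 for Psmb9 over Psmb6 and -0.39 for Psmb10 over Psmb7. DESeq2 called 1 member in the control arm, 2 in the interaction and 24 genes between the Pre groups, where 2 were called as tested. For these, no filter gave 12 genes and the 2 groups alone 1. Leaving out single libraries called 265 to 1588 genes in the control arm (1415), 1 to 3 members in the 2'-FL arm, 3279 to 5384 genes and 1 to 4 members between the arms after resection (3 members), 0 to 17 genes between the Pre groups, and 424 to 3024 genes and 0 to 2 members in the interaction. Whether replicate numbers pair the libraries is not given and was not tested. Deviations of same-numbered libraries correlated between -0.10 and 0.16 in the control arm, -0.12 and 0.22 in the 2'-FL arm, -0.23 and 0.10 after resection and 0.05 and 0.42 before it. Those of differently numbered libraries before resection correlated between -0.36 and 0.31. With the replicate block, 2 members, Tap1 and Tap2, were called in the control arm beside 1674 genes in all, and 0 genes between the Pre groups. With block and correction, 2204 genes and 4 members were called in the control arm, 3609 genes in the 2'-FL arm, 2011 genes and 1 member after resection and 7 genes between the Pre groups. Nlrc5 rests on 6 to 78 counts a library, which limits its precision.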
